A study of Mus musculus with 8 samples.

Results

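The genes described here encode the interferon regulatory factor 2 binding proteins, Irf2bp1, Irf2bp2 and Irf2bpl, and Irf2, the transcription factor after which they are named. H3K9ac, the acetyl mark on lysine 9 of histone H3 that is found at promoters in use, was measured by chromatin immunoprecipitation and sequencing in intestinal epithelial cells isolated from the terminal ileum of C57Bl/6 mice of wild-type genotype. The H3K9ac_butyrate group had received 150 mM butyrate over 7 days, the H3K9ac_vehicle group vehicle, and each group held 3 libraries. The labels give neither the composition of the vehicle, the route, nor the age of the mice, nor whether the libraries stem from separate mice, so the spread between libraries may be technical. The members were every region of the deposited table whose nearest gene was one of these 4 genes, which gave 8 of 11251 regions: 1 at Irf2bp2, 2 at Irf2bp1, 2 at Irf2bpl and 3 at Irf2. Irf2bp2 was chosen by its measured difference, a region called lower with butyrate in the authors' deposited table, and the other genes as its relatives and its partner. The differences of all 8 regions between butyrate and vehicle are therefore a description, without a test.

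The IRF2BP proteins are nuclear corepressors. They share a zinc finger at the N-terminus and a RING-type domain at the C-terminus, and IRF2BP1 and IRF2BP2 were found through their binding to the repression domain of IRF2. IRF2 binds the interferon-stimulated response element and is known both for holding back interferon-responsive genes and for activating some of them. Butyrate, a short-chain fatty acid of the gut microbiota, inhibits zinc-dependent histone deacetylases. Whether the IRF2BP proteins act through these enzymes was not tested here.

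The promoters of the 4 genes are shown because the H3K9ac regions lie over or beside them, and because they differ in the short motifs they hold. Sequences are from RefSeq (GRCm38.p6, the assembly behind mm10), 5′ to 3′ on the strand of the gene, and begin 250 bases before the RefSeq start. Those of Irf2 and Irf2bp1 are printed without their last 13 and 14 bases, which are annotated as transcribed, while motifs and CpG were counted over the full 250 bases. Positions are counted back from the RefSeq start. Capitals mark matches on either strand to the core of the interferon-stimulated response element (2 copies of GAAA with 2 bases of any kind between them), GGGCGG (the GC box) or CCAAT. All 4 genes were found in the RefSeq table. The printed bases lie at chr8:126593987-126594236 (minus strand) for Irf2bp2, chr7:19003808-19004043 (plus strand) for Irf2bp1, chr12:86884815-86885064 (minus strand) for Irf2bpl and chr8:46739495-46739731 (plus strand) for Irf2.

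Irf2bp2: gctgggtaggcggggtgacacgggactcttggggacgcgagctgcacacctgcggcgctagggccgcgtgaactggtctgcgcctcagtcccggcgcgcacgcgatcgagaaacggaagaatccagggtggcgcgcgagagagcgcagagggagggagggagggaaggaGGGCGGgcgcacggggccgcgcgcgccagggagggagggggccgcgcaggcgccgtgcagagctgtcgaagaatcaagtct
Irf2bp1: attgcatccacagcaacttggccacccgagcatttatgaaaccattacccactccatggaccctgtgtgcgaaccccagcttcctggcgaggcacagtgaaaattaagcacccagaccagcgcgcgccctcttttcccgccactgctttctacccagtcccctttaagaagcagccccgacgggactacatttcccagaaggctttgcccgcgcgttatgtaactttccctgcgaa
Irf2bpl: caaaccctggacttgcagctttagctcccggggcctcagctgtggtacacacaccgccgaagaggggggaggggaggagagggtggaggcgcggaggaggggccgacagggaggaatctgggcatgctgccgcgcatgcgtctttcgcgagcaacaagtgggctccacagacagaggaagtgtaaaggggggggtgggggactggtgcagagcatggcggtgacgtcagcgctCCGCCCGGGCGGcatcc
Irf2: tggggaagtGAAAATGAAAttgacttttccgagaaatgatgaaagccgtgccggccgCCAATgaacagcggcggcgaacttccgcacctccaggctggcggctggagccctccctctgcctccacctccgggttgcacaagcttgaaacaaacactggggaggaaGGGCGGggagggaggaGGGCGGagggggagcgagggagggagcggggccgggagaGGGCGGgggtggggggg

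The Irf2 promoter held 1 match to the response element core, at -241 to -232, a motif found in 2.98% of 32851 promoter windows of 250 bases. None of the 3 Irf2bp promoters held it. The Irf2 window also held 3 GC boxes and 1 CCAAT. The Irf2bpl window held 2 GC boxes side by side on opposite strands, at -17 to -12 and at -11 to -6, and the Irf2bp2 window held 1, at -81 to -76. No match to any of the 3 motifs was found in the Irf2bp1 window. GC boxes were present in 32.7% of all windows and CCAAT in 33.8%. The Irf2bp2 window was the richest of the 4 in CpG, with 32 in 250 bases against 17 at Irf2bpl, 17 at Irf2, 14 at Irf2bp1 and a median of 6 over all windows. A match describes the letters of a window and does not show that a factor binds there.

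The extent of H3K9ac differed among the genes. At Irf2bp2 a single region of 7591 bp (chr8:126587933-126595524, as in the deposited table, mm10) ran from 1538 bp before the start site to 6053 bp after it and covered 100% of the 5691 bp gene, both exons included. It ranked 52 in width and 16 in mean reads among the 11251 regions. The region also overlaps the 3′ part of Gm26759, an antisense transcript, and immunoprecipitated DNA carries no strand, so the 2 genes cannot be told apart there. The Irf2bpl start-site region (chr12:86882799-86885940, 3141 bp) covered 48.8% of a single-exon gene of 4098 bp. A further region of 882 bp (chr12:86892002-86892884), 7204 to 8086 bp upstream of the Irf2bpl start site and annotated as intergenic, lay over the start of the long non-coding gene Gm26698.

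At Irf2bp1, also a single-exon gene, H3K9ac was split. A region of 791 bp (chr7:19004063-19004854) began 19 bp after the GENCODE start site and covered 29% of the exon. A region of 961 bp (chr7:19002235-19003196) lay upstream, next to the transcription termination site of another gene in the deposited annotation. The 867 bp between them, which hold the whole promoter window shown for Irf2bp1, were in no region of the table, whereas the windows of the other 3 genes lay wholly inside one. At Irf2 a region of 4483 bp (chr8:46738972-46743455) covered the start sites of Irf2 and of Gm16675, a non-coding gene transcribed the other way, and 3.46% of the 107727 bp gene. The other Irf2 regions, chr8:46791779-46792438 and chr8:46828807-46829478, were intronic (introns 1 and 6 in the deposited annotation), 52364 bp and 89398 bp from the start site. Their GC content of 46.1% and 43.8% was below the median region's 52.2%, while the Irf2bp1 exon region was among the most GC-rich of the table at 73.2%.

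**Figure D1:**
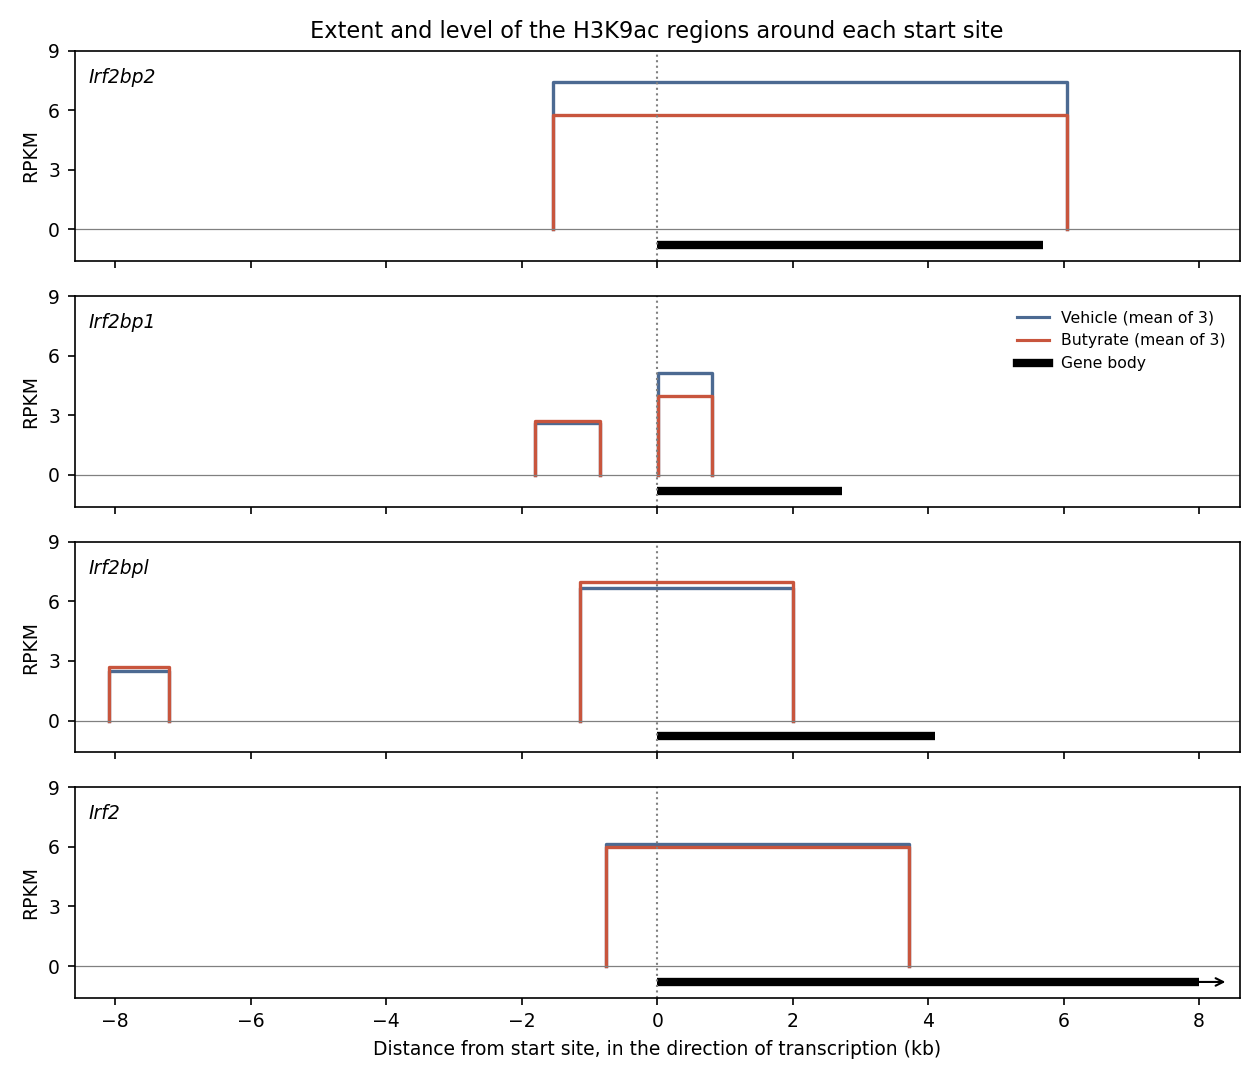
Mean H3K9ac (RPKM, y axis) of the 3 vehicle and 3 butyrate libraries over the regions around each start site (x axis, kb in the direction of transcription); the black bar is the gene body, cut at 8 kb for Irf2. The Irf2bp2 region spans the whole gene, and the start site of Irf2bp1 falls at the edge of a gap between its 2 regions.

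The labelled cell type was checked against marker genes. All 13 epithelial markers were measured, at 3.07 to 7.83 RPKM. Their summed levels were 67.0 to 71.3 RPKM per vehicle library and 62.8 to 68.7 per butyrate library. With butyrate 8 were lower and 5 higher (median limma difference -0.10). By limma 0 passed an adjusted p of 0.05, as did 0% of all tested regions, and 1 had an unadjusted p under 0.05, beside 7.27%. All butyrate libraries lay below all vehicle libraries at 3 of the 13 and above them at 2, beside 7.35% and 6.83% of all regions. Of 11 immune markers 10 had no region, and Ptprc, the leukocyte gene CD45, had 0.558 to 1.35 RPKM on 9.67 mean reads. Of 10 stromal and endothelial markers 8 had none, Vim had 0.593 to 1.98 RPKM on 17.5 mean reads, and a region named for Cdh5, at -64806 bp from its start site, had 1.36 to 1.99 RPKM on 48.3 mean reads. What part the cell make-up had in the differences was not tested. The libraries held 1255251 to 1828591 reads in regions.

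H3K9ac at Irf2bp2, a corepressor and coactivator of several transcription factors, was lower in every butyrate library. RPKM (reads divided by region length in kb and by library size) was 7.52, 7.66 and 7.14 in the vehicle libraries S1 to S3 and 5.97, 5.40 and 5.90 in the butyrate libraries S4 to S6. The groups thus did not overlap, and the gap between the lowest vehicle and the highest butyrate library was wider than the range within either group. The means were 7.44 ± 0.27 and 5.75 ± 0.31 RPKM (SD, n = 3 each), a ratio of 0.773. These values rest on 1473, 1038 and 1121 reads in vehicle and 1005, 734 and 1008 in butyrate, for which counting error alone is about 3.07% of a library's value. The variance of reads within groups was 1.94 times what counting gives (chi-square per degree of freedom).

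On the log2(RPKM + 1) scale the difference at Irf2bp2, butyrate minus vehicle, was -0.32 ± 0.07 (SE; 95% interval -0.48 to -0.16) in a limma fit of the whole table. By limma's voom on the reads recovered from the RPKM values it was -0.37 ± 0.07 (-0.50 to -0.24). Irf2bp2 was chosen for this difference, and neither interval allows for that choice. The estimates may thus be too large in size, and the intervals are no test. The authors' deposited table gave a log2 fold change of -0.37 with an FDR of 0.0018 and called the region lower, as it did 17 regions (0.151%) at its FDR threshold of 0.1. With any 1 library left out the limma difference was -0.35 to -0.28. The libraries were nearly equal in their sum over all regions. Whether the scaling made them so was not established, so a difference shared by all regions may have been removed. In a bulk preparation fewer cells carrying the mark and less of it per cell cannot be told apart.

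Irf2bp1, the other protein found as an IRF2 partner, had a start-site region with a similar ratio and a wider spread. Its vehicle libraries held 6.03, 4.18 and 5.26 RPKM and its butyrate libraries 3.59, 4.38 and 4.04. The lowest vehicle library thus lay under the highest butyrate library, and the groups overlapped. The means were 5.15 ± 0.93 and 4.003 ± 0.40 RPKM (SD, n = 3 each), a ratio of 0.777, on a mean of 77.5 reads, for which counting error is 11.4%. The limma difference was -0.29 ± 0.12 (SE; 95% interval -0.54 to -0.04), with a range of -0.41 to -0.19 over the fits that omit a library. By voom the difference was -0.39 ± 0.19 (SE, with a 95% interval from -0.77 to -0.01), beside -0.37 at Irf2bp2. The authors' deposited table gave this region -0.38 with an FDR of 0.526 and did not call it. Each interval includes the value found at Irf2bp2 by the same fit and reaches nearly to 0, so these data do not show whether the 2 genes differed alike.

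The upstream Irf2bp1 region behaved otherwise. Its libraries held 3.15, 1.87 and 2.82 RPKM in vehicle and 1.88, 3.20 and 3.10 in butyrate, a low library in each group. The means were 2.61 ± 0.66 and 2.72 ± 0.74 RPKM (SD, n = 3 each) and the limma difference was 0.04 ± 0.17 (SE; 95% interval -0.32 to 0.41). Without library S2 the difference was -0.12, and without S4 it was 0.22. Library S2 was the lowest vehicle library, and S4 the lowest butyrate library, in both Irf2bp1 regions.

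Irf2bpl, a paralogue with the same zinc finger and RING-type domains, had almost equal H3K9ac in both groups. Its start-site region held 7.23, 6.94 and 5.84 RPKM in vehicle and 7.19, 6.54 and 7.23 in butyrate. All butyrate libraries lay inside the vehicle range, and library S3 was the lowest. The means were 6.67 ± 0.74 and 6.99 ± 0.38 RPKM (SD, n = 3 each), with a limma difference of 0.06 ± 0.09 (SE; 95% interval -0.12 to 0.25) on a mean of 455.7 reads. The upstream region over the start of Gm26698 held 2.15, 2.54 and 2.74 RPKM in vehicle and 2.55, 2.91 and 2.62 in butyrate, with a difference of 0.09 ± 0.12 (SE). The highest vehicle library lay inside the butyrate range there, on a mean of 47.8 reads.

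Irf2, which binds DNA and recruits the IRF2BP proteins, also had overlapping groups at its promoter. The start-site region held 6.48, 6.22 and 5.79 RPKM in vehicle and 6.87, 4.75 and 6.40 in butyrate, so that the butyrate group held both the highest and the lowest library. The means were 6.17 ± 0.35 and 6.00 ± 1.1 RPKM (SD, n = 3 each), and the limma difference was -0.05 ± 0.11 (SE; 95% interval -0.28 to 0.19) on a mean of 582.5 reads. Without library S5 the difference was 0.09. The variance of reads within groups was 9.81 times that of counting (chi-square per degree of freedom), the largest ratio of the 8 regions.

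The intronic Irf2 regions were the weakest of the members, with vehicle and butyrate means of 1.21 ± 0.22 and 1.01 ± 0.26 RPKM at 52364 bp, and 1.31 ± 0.37 and 1.06 ± 0.18 RPKM at 89398 bp (SD, n = 3 each). Their groups overlapped and their mean reads were 15.3 and 16.8, for which counting error is 25.5% and 24.4%. Their limma differences of -0.13 ± 0.19 and -0.16 ± 0.19 (SE) have 95% intervals from -0.54 to 0.27 and from -0.56 to 0.24. Each interval spans no change as well as the limma difference at Irf2bp2. A difference of that size is thus neither shown nor excluded in these regions.

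Over the family the groups did not overlap at 1 of the 8 regions, with butyrate below vehicle; over the whole table this held at 7.35% of regions, and the member was chosen for it. The other 7 overlapped. Mean H3K9ac was lower with butyrate at 5 regions and higher at 3, and all 8 passed the filter of a mean RPKM of at least 1.

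**Figure D2:**
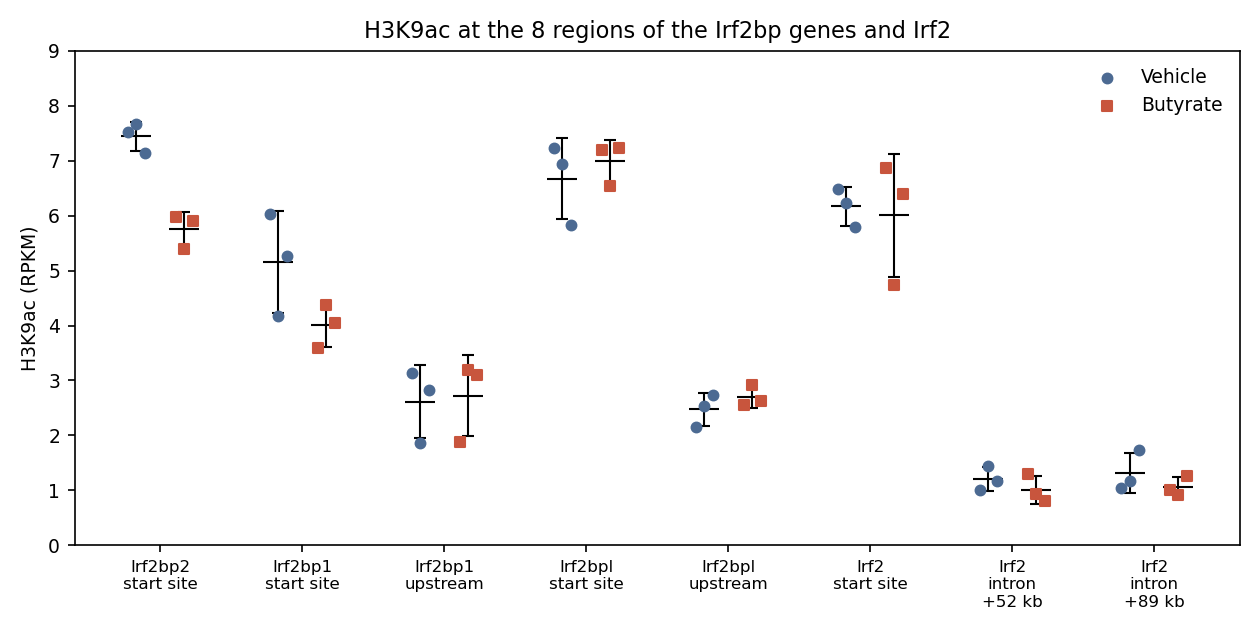
H3K9ac in RPKM (y axis) at the 8 regions (x axis); points are single libraries, vehicle as blue circles and butyrate as red squares, and the bars give mean and SD of 3 libraries. At Irf2bp2 all butyrate points (5.40 to 5.97) lie below all vehicle points (7.14 to 7.66), while the groups overlap at the other 7 regions.

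Levels per length formed 3 tiers. Over the 6 libraries the start-site regions held 6.83 ± 0.55 RPKM at Irf2bpl, 6.598 ± 0.96 at Irf2bp2, 6.09 ± 0.74 at Irf2 and 4.58 ± 0.90 at Irf2bp1 (SD, n = 6 each). Neighbours in this order overlapped in their ranges, with Irf2bp1 reaching from 3.59 to 6.03 and Irf2 from 4.75 to 6.87. All libraries of the 4 start-site regions lay above all of the upstream regions, which held 2.67 ± 0.63 RPKM at Irf2bp1 and 2.59 ± 0.25 at Irf2bpl and overlapped each other. The intronic regions of Irf2 lay below both, at 0.809 to 1.73 RPKM against 1.87 to 3.20. Among all regions of the table the Irf2bpl, Irf2bp2 and Irf2 start-site regions stood at the 97.9, 97.4 and 95.8 percentiles of RPKM, and the Irf2bp1 one at 83.4.

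Ratios taken within a library do not depend on how libraries were scaled. The ratio of RPKM at Irf2bp2 to that at Irf2bpl was 1.04, 1.10 and 1.22 in vehicle and 0.830, 0.825 and 0.816 in butyrate. Irf2bp2 was thus the higher of the pair in every vehicle library and the lower in every butyrate library. Its ratio to Irf2 was 1.16, 1.23 and 1.23 in vehicle and 0.869, 1.14 and 0.922 in butyrate, again without overlap but with S5 close to the vehicle group; S5 was the library in which Irf2 itself was low. Its ratio to Irf2bp1 averaged 1.48 ± 0.31 over the vehicle libraries and 1.45 ± 0.21 over the butyrate libraries (SD, n = 3 each), with overlapping groups. Because Irf2bp2 was chosen for its difference, these ratios are a description too.

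**Figure D3:**
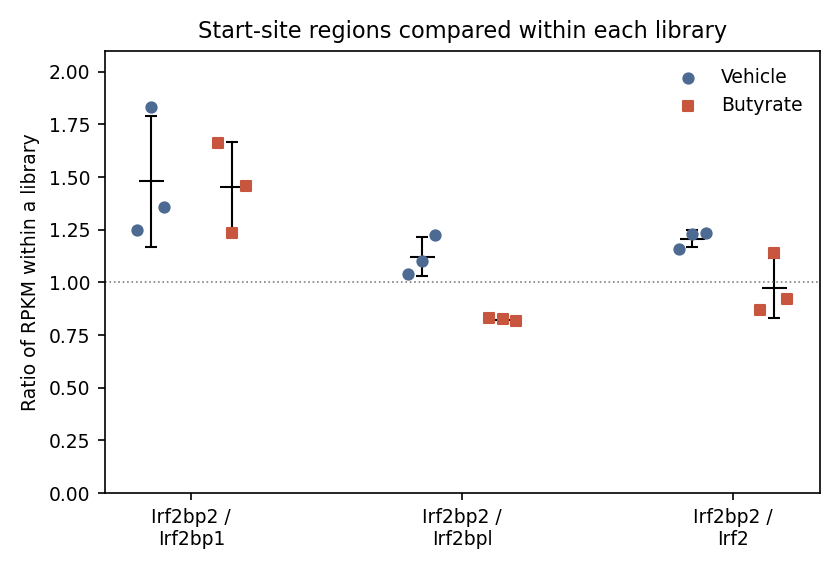
Ratio of RPKM at the Irf2bp2 start-site region to that at the start-site regions of Irf2bp1, Irf2bpl and Irf2, within each library (y axis); points are libraries, bars are mean and SD of 3. The ratios to Irf2bpl lie above 1 in all vehicle libraries (1.04 to 1.22) and below 1 in all butyrate libraries (0.816 to 0.830), and the ratios to Irf2bp1 overlap.

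Few regions are as deeply covered as Irf2bp2. Among the 213 regions with at least 500 mean reads, a depth chosen after the values were known, 94.4% differed by less than 0.2 on the log2 scale by voom. The Irf2bp2 difference of -0.37 was the lowest of these. The next was -0.25 at Elf3, an epithelial ETS factor, and the highest was 0.31 at Fos, a subunit of AP-1. This rank restates the choice of Irf2bp2 by its difference and is no test. The Irf2 start-site region, also in this class, had -0.04.

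**Figure D4:**
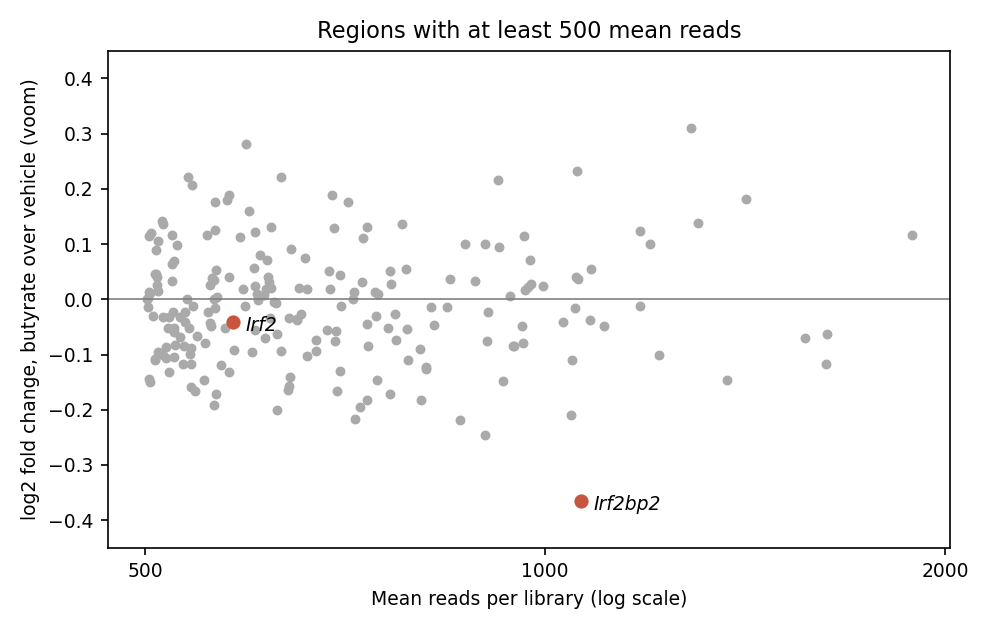
log2 fold change of butyrate over vehicle by voom (y axis) against mean reads per library (x axis, log scale) for the 213 regions with at least 500 mean reads; each point is a region and the Irf2bp2 and Irf2 start-site regions are red. The Irf2bp2 point at -0.37, a region chosen for its difference, lies below all others, and Irf2 at -0.04 lies within the bulk.

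The regions around the members were compared to see whether the loci as a whole differed. Within 250 kb of a member there were 19 other regions, of which 17 passed the filter and 0 passed limma on log2(RPKM + 1) at a Benjamini-Hochberg adjusted p of 0.05 (smallest limma adjusted p 0.65). That test called 0% of all 10529 regions tested; by voom, which called 0.0995% of regions with at least 25 mean reads, 0 of the neighbours passed as well. An unadjusted p under 0.05 was found at 1 of the 17, against 7.27% of all regions tested. Their median limma difference was 0.01, beside 0.00 over all regions, with 8 lower and 9 higher. By locus the median was -0.16 near Irf2bp2 (3 lower, 1 higher) and 0.02 near Irf2bp1 (3 lower, 6 higher). It was 0.01 near Irf2bpl and -0.02 near Irf2, each with 1 lower and 1 higher.

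The Irf2bp2 locus held 4 other regions in that window, none nearer than 168.3 kb, against a median of 5 over all regions of the table. The nearest on one side, at Coa6, a cytochrome c oxidase assembly factor, had 2.73 ± 0.14 and 2.48 ± 0.32 RPKM in vehicle and butyrate (SD, n = 3 each; limma adjusted p 0.86). On the other side, at 235.7 kb, a region named for the non-coding gene A630001O12Rik had 3.27 ± 0.55 and 2.67 ± 0.46 RPKM (SD, n = 3 each; limma adjusted p 0.74). The remaining regions, at 237.4 and 238.5 kb, bear the same gene name and lie beside it. They had limma differences of -0.39 and 0.07 on 11.3 and 38.3 mean reads. All regions of this window but Coa6 thus lie side by side. The groups overlapped at all 4 of these regions. The Irf2bp1 locus held 9 regions besides the members. There the nearest regions on each side, at Pglyrp1, an antibacterial peptidoglycan recognition protein, and at Foxa3, a forkhead factor of endodermal tissues, had all butyrate libraries below all vehicle libraries without passing the test. These were the 2 of the 19 neighbours without overlap, against 7.35% of all regions with butyrate below and 14.2% without overlap in either direction. Pglyrp1 had 2.63 ± 0.98 and 1.66 ± 0.12 RPKM on 22.2 mean reads (SD, n = 3 each; limma adjusted p 0.65). Foxa3 had 1.98 ± 0.18 and 1.36 ± 0.49 RPKM on 17.5 mean reads (SD, n = 3 each; limma adjusted p 0.70). Beside Foxa3, the region of Sympk, a scaffold of the polyadenylation machinery, was nearly equal at 4.26 ± 0.44 and 4.42 ± 0.41 RPKM (SD, n = 3 each), and was singled out after its values were seen.

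Near Irf2bpl the closest regions were those of Gm32755 (1.76 ± 0.37 and 1.84 ± 0.65 RPKM) and of Cipc, an inhibitor of the circadian activator CLOCK (2.82 ± 0.16 and 2.80 ± 0.25 RPKM; SD, n = 3 each). Near Irf2 the region of Enpp6, with 0.5004 ± 0.36 and 0.842 ± 0.25 RPKM (SD, n = 3 each), was too weak for the test. The groups overlapped at these 3 regions.

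The other IRF genes and the genes tied to IRF2 and its partners were taken from 4 lists, at 1 region per gene within 5 kb of the start site. None of the measured members passed limma at an adjusted p of 0.05 in any of the 4 lists, and none of those with at least 25 mean reads passed voom. Limma called 0% of all 10529 regions tested, and voom 0.0995% of those with at least 25 mean reads. The absence of calls thus does not set these genes apart. The counts are to be read against the whole table, where 7.27% of tested regions had an unadjusted p under 0.05 and the groups did not overlap at 14.2% of regions. Of the other IRF genes 7 of 8 were measured, Irf4 having no region; 3 were lower and 4 higher with butyrate, with a median limma difference of 0.01, and 1 had an unadjusted p under 0.05. That was Irf3, which is activated by viral nucleic acid sensing, with 4.32 ± 0.72 and 2.90 ± 0.91 RPKM (SD, n = 3 each), a difference of -0.47 ± 0.16 (SE) and a limma adjusted p of 0.57. Its groups overlapped, and those of 1 of the 7 genes, Irf9, did not. Irf9, the DNA-binding subunit of the interferon-activated complex ISGF3, had 2.68 ± 0.038 and 2.99 ± 0.23 RPKM (SD, n = 3 each; limma adjusted p 0.82), and Irf5, a factor of Toll-like receptor signalling, 3.00 ± 1.1 and 3.28 ± 0.26 (limma adjusted p 0.87). Over the 6 libraries the mean levels of these 7 genes lay between 2.83 and 3.67 RPKM, below that of the Irf2 start-site region.

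Of 15 genes for partners and targets of IRF2BP proteins or IRF2, 11 were measured, 4 lower and 7 higher (median 0.02), and 1 had an unadjusted p under 0.05. Ncor1, a corepressor that recruits deacetylases, had 6.50 ± 0.37 and 5.66 ± 0.20 RPKM in vehicle and butyrate (SD, n = 3 each), a difference of -0.17 ± 0.08 (SE; limma adjusted p 0.67). Ep300, the p300 acetyltransferase, lay the other way with 6.83 ± 0.31 and 7.70 ± 0.39 RPKM (SD, n = 3 each; 0.15 ± 0.07, limma adjusted p 0.70). These were the 2 of the 11 genes whose groups did not overlap, beside 14.2% of all regions. Brd7, a bromodomain protein that binds IRF2, had 5.42 ± 0.57 and 5.94 ± 0.37 RPKM with overlapping groups (limma adjusted p 0.79). Vegfa, a gene that IRF2BP2 has been reported to activate, was nearly equal at 6.39 ± 0.38 and 6.41 ± 0.15 RPKM (SD, n = 3 each), and was singled out after its values were seen.

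All 12 genes of interferon receptors and their kinases and STAT factors were measured. With butyrate 8 were lower and 4 higher (median -0.06), and 1 had an unadjusted p under 0.05. Ifnar1, a chain of the type I interferon receptor, had 4.04 ± 0.26 and 3.32 ± 0.30 RPKM (SD, n = 3 each), a difference of -0.22 ± 0.10 (SE; limma adjusted p 0.67), and Tyk2, its kinase, 2.31 ± 0.10 and 1.96 ± 0.17 (limma adjusted p 0.78). Stat3 had 4.89 ± 0.32 and 5.65 ± 0.46 RPKM (SD, n = 3 each; limma adjusted p 0.70). These 3 genes, named for the smallest p of the list, were also the 3 of 12 whose groups did not overlap, beside 14.2% of all regions.

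Interferon-responsive genes were measured at 23 of 33, with 10 lower and 13 higher (median 0.01) and 3 with an unadjusted p under 0.05, beside 7.27% of all tested regions. Psmb8, an immunoproteasome subunit, had 3.22 ± 0.11 and 4.39 ± 0.45 RPKM in vehicle and butyrate (SD, n = 3 each), a difference of 0.35 ± 0.10 (SE; limma adjusted p 0.57). Isg15, a ubiquitin-like modifier, had 1.21 ± 0.35 and 1.89 ± 0.21 RPKM on 20.7 mean reads (SD, n = 3 each; limma adjusted p 0.65). Tlr3, the sensor of double-stranded RNA, lay the other way with 2.36 ± 0.16 and 1.67 ± 0.14 RPKM (SD, n = 3 each; -0.33 ± 0.13 SE, limma adjusted p 0.64). The groups did not overlap at 4 of the 23 genes, beside 14.2% of all regions: these 3 and Tapbp, the tapasin of peptide loading, with 3.56 ± 0.30 and 3.17 ± 0.13 RPKM (SD, n = 3 each), which was named after its values were seen. The share of lower regions over the whole table was 50%.

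**Figure D5:**
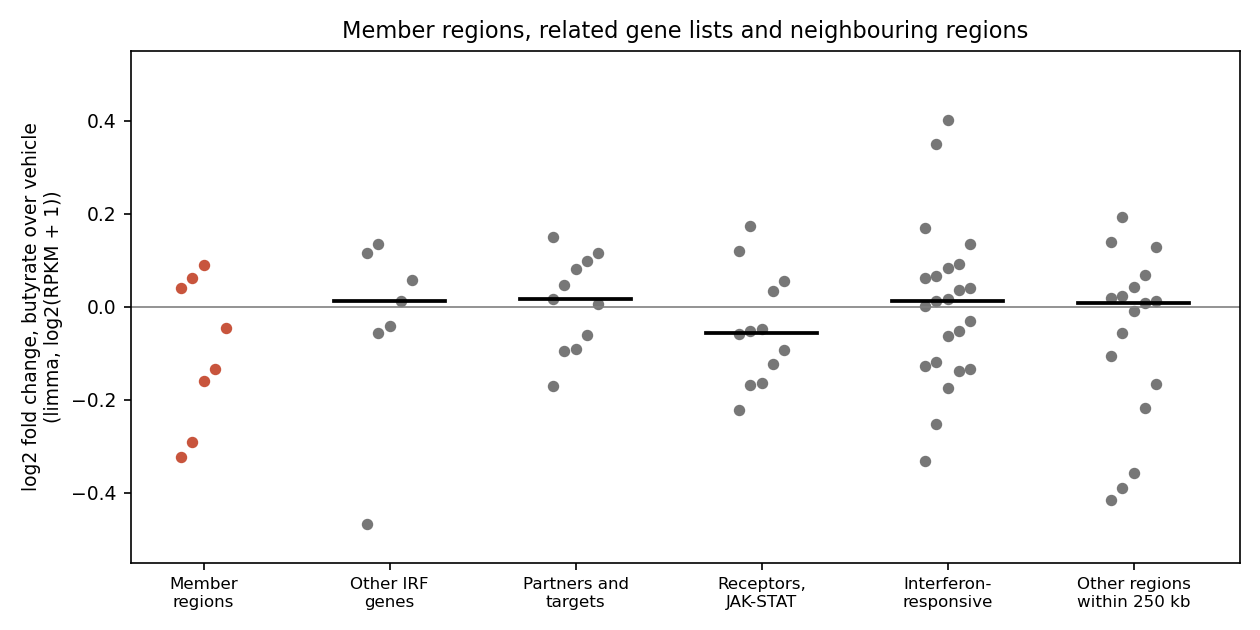
log2 fold change of butyrate over vehicle by limma on log2(RPKM + 1) (y axis) for the 8 member regions (red), the measured genes of the 4 lists and the 17 tested regions within 250 kb (grey); each point is a region and black lines are medians. The medians of the lists lie between -0.06 and 0.02 and that of the pooled neighbours at 0.01. On this scale the lowest member is Irf2bp2 at -0.32, while by voom the Irf2bp1 start-site region is lower, at -0.39 against -0.37.

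The regions most like Irf2bp2 in their course over the 6 libraries were sought among 5530 regions with at least 100 mean reads, by the root mean square difference of their centred log2(RPKM + 1) values. The 5 closest were Riox1, a ribosomal oxygenase (0.035), Mmd, a membrane protein of the progestin and adipoQ receptor family (0.039), Cobll1, a cordon-bleu-like actin regulator (0.041), Itpkc, an inositol trisphosphate kinase (0.051), and Rreb1, a zinc-finger factor of Ras-responsive elements (0.054). The median region differed by 0.19. The 5 regions were picked by their match to Irf2bp2, so their lower butyrate values follow from that choice. Shared regulation was not tested. Cobll1 came closest in level as well, with 6.11, 6.78 and 6.08 RPKM in vehicle and 4.94, 4.80 and 4.93 in butyrate. Irf2 ranked 1940 and Irf2bpl 3115 by the same measure, and the Irf2bp1 regions were below the depth asked for.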

How the data were processed

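The members and gene lists were chosen with earlier results of these data known. Per the labels, chromatin was precipitated with an antibody to H3K9ac and sequenced as 100 bp paired-end reads. The submitters' processing notes name mm10, STAR, Picard, HOMER and edgeR, without versions. How regions were called is not given in the sources used here. The table deposited by the authors holds RPKM per library, mean RPKM and mean CPM per group, a log2 fold change and log2 CPM, and a p-value with its FDR for each region. Column names gave each library's group (vehicle for S1, S2 and S3; butyrate for S4, S5 and S6) but no replicate number. The 2 input libraries were not analysed here.

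Multiplied by region length and divided by a constant of the library, 100% of the RPKM values came out whole to within 0.01 reads, which gave the reads of each region and effective library sizes of 17846924 to 25805595. Replicate pairs differed by more than counting noise (chi-square per degree of freedom 1.96 to 2.11).

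The test was limma 3.58.1 (R 4.3.3) on log2(RPKM + 1) with trend and robust empirical Bayes, over 10529 regions with a mean RPKM of at least 1, with Benjamini-Hochberg adjustment at 0.05; this scale understates differences of weak regions. Voom was run on the recovered reads, on all regions and on those with at least 25 mean reads. Both fits were also run on simulated reads, with a spread fixed in advance and changes larger than that at Irf2bp2. This does not show how well smaller differences are found. No test was made of the members. A gene in a list was taken at the most deeply read region no more than 5 kb from its start site. Named were all member regions, the 3 smallest p of each list, the nearest other region on each side within 250 kb and the 5 regions most like Irf2bp2. The nearest region on one side of Irf2 is not reported here. Sympk, Vegfa, Tapbp, Elf3 and Fos were named after their values were seen. Gene models were GENCODE M21 and promoters RefSeq, both on GRCm38. All 11251 regions lay within its chromosomes. Alternatives covered pseudocount, filter, scaling, voom, the region taken per gene and leaving out each library.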

Additional observations from a re-analysis of the deposited data

How the results depend on the processing

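The member differences moved by less than the spread between libraries (pooled within-group SD) with another pseudocount, no filter, 2 scalings and voom. Leaving out 1 of 3 libraries cannot move a difference by more than that SD, so those fits could not fail this comparison. Under all alternatives the differences kept their sign at Irf2bp2, the Irf2bp1 start-site region, the upstream Irf2bpl region and both intronic Irf2 regions. The sign differed from the reported one in 4 of 12 alternatives at the upstream Irf2bp1 region, and in 1 of 12 each at the Irf2bpl and Irf2 start-site regions. At Irf2bp2 the range was -0.37 to -0.28. Regions called numbered 0 by limma under every alternative of filter, pseudocount, scaling and left-out library. They numbered 16 by voom on all regions and 9 by voom on at least 25 mean reads, and the cause of this difference was not tested. The median of the other IRF genes was 0.01 and, leaving out single libraries, between -0.0674 (without S3) and 0.0696 (without S5), with -0.0362 without S6. The other lists' medians moved by less than the spread between libraries. The median changed sign in 3 of 13 alternatives for the other IRF genes and in 3 of 13 for the interferon-responsive genes. For partners and targets it did so in 2 of 13, and for the receptor list in 0 of 13. edgeR's quasi-likelihood test was planned and not run; voom was the only test made on the recovered reads. No paired analysis was possible because the columns carry no replicate numbers. The intronic Irf2 regions had the fewest reads of the members.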
